A study of Mus musculus with 6 samples.

Results

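Angiopoietins and vascular endothelial growth factors (VEGFs) are secreted proteins that act on receptor tyrosine kinases of blood vessels. The genes described are 3 angiopoietins (Angpt1, Angpt2 and Angpt4), both Tie receptors (Tek, also called Tie2, and Tie1), 3 VEGF ligands (Vegfa, Vegfb and Vegfc) and 2 VEGF receptors (Kdr and Flt1). They are 10 of the 19938 gene symbols measured. Members were selected on the gene symbol of the array row, and where a symbol had several rows the row with the highest mean over the 6 arrays was to be used. Each of the 10 symbols had 1 row, so that this measured mean decided nothing. Angpt2 was already known from earlier results of the same arrays to be among the largest differences, and its own values are therefore a description.

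N2A (neuro 2A) is a line of mouse neuroblastoma, a tumour of the sympathetic nervous lineage. The cells received either a non-targeting control vector or a vector for a short hairpin RNA (shRNA). The hairpin targets Pou3f3, a neural transcription factor of the POU family. The comparison asked which transcripts differ between cells given these vectors. Effects of Pou3f3 depletion and any other effects of the hairpin cannot be told apart in these arrays. Both groups were grown with 10% fetal bovine serum and given 1.5 µg of shRNA vector in a transient transfection, with the hairpin driven by the U6 promoter, and RNA was taken 2.5 days later. Each group had 3 arrays of the Affymetrix Mouse Gene ST type, described as biological replicates of a single cell line. No gene was deleted in either group, and the sources used here do not give the share of cells that took up the vector. Values are log2 array signals, normalised between arrays by the authors, in which a difference of 1 is a 2-fold difference. The medians of the 6 arrays lay between 7.90 and 8.01. Signals of different rows come from different probes, so levels are compared within a gene and the 10 genes are not ranked by level. In RNA from whole cultures, fewer cells of a type and less RNA per cell cannot be told apart.

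As background, Angpt1 is the activating ligand of Tek and keeps vessels quiescent, while Angpt2 binds the same receptor, mostly as an antagonist of Angpt1 in endothelium, and is released when vessels remodel. Angpt4 is a further Tek ligand, and Tie1 is a receptor with no well-established ligand of its own that modulates Tek signalling. Vegfa acts through Kdr to drive endothelial growth and permeability. Flt1 binds Vegfa tightly and serves largely as a trap, Vegfb binds Flt1, and Vegfc is best known as the growth factor of lymphatic vessels. Tumour cells are a common source of the ligands, whereas the receptors are typical of endothelium.

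Angpt2 is the gene on which the results turn, and the sequences below belong to an assay with which the study probed it. They are the forward and reverse primers, each 5′ to 3′, that the study lists for chromatin immunoprecipitation (ChIP) at this gene.
Angpt2ChIPF1: atgtcagaggcaccacccta
Angpt2ChIPR1: gcttagcctacaaacgagcag
The primers are 20 and 21 bases long, with 55.0% and 52.4% of G and C. Neither was found in any of the 32851 RefSeq promoter windows that were searched (assembly GRCm38.p6, the start of each gene with the bases just before it), which hold no window for Angpt2 or Angpt1. The ChIP measurements themselves were not analysed here.

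The targeted gene was examined first. Pou3f3 read 8.37, 8.30 and 8.47 in the control arrays and 8.20, 8.09 and 8.35 in the knockdown arrays. Its mean was 8.38 ± 0.09 in control and 8.21 ± 0.13 in knockdown (SD, n = 3), a difference of -0.16 or -10.8% (95% confidence interval -0.35 to 0.02, limma adjusted p = 0.303). The groups overlapped, although knockdown was lower in all 3 pairs of arrays with the same replicate number, as were 29.0% of all rows. Pairing the arrays by a replicate block gave an interval of -0.29 to -0.03 and a limma adjusted p of 0.0880, so that the row was then short only of the 1.3-fold required for a call. Without knockdown 2 the difference was -0.10. Rows were tested with limma over all 21789 rows of 1 gene symbol, with a call requiring both an adjusted p under 0.1 and 1.3-fold or more. This called 433 rows or 1.99%, with 284 higher and 149 lower in knockdown (1.3% and 0.684% of rows). Centring the arrays on their medians gave 491 higher and 105 lower. The excess of higher rows did not hold without knockdown 2 (67 higher, 80 lower), without control 2 (78 and 83) or with the variance filter over all rows (2 and 10). With that filter over rows of 1 symbol the excess held (378 higher, 164 lower).

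Among the angiopoietins, Angpt2 fell by about a factor of 2 and the others did not pass the test. Angpt2 read 10.52, 10.69 and 10.78 in the control arrays and 9.61, 9.70 and 9.62 in the knockdown arrays. Every knockdown array lay below every control array, and the gap between the groups was wider than the range within either. The mean went from 10.66 ± 0.13 to 9.64 ± 0.05 (SD, n = 3), a difference of -1.02 with a standard error (SE) of 0.08 and a 95% confidence interval of -1.20 to -0.84. On the linear scale this is a change of -50.7%, or 2.03-fold. The limma adjusted p was 0.00203, and the exact two-sided permutation test over arrays gave 0.1, the smallest that 3 against 3 arrays allow. The pairs of arrays with the same replicate number differed by -0.92, -0.99 and -1.16. By size this was the 4th of the 149 rows called lower.

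Angpt1, the agonist ligand, read 5.10, 5.19 and 5.11 in control and 5.11, 5.06 and 5.03 in knockdown. The groups overlapped and the difference was -0.07 (SE 0.06, 95% confidence interval -0.21 to 0.08, limma adjusted p = 0.578). Angpt4 read 8.13, 8.27 and 8.08 in control and 7.98, 7.80 and 8.06 in knockdown. All 3 knockdown arrays of Angpt4 lay below the control arrays, but control 3 and knockdown 3 were only 0.02 apart. Its difference was -0.22 (SE 0.09, interval -0.41 to -0.02), a change of -13.9%, with a limma adjusted p of 0.215, and without knockdown 2 it was -0.14. Angpt4 was the one gene other than Angpt2 whose interval reached beyond 1.3-fold, which is 0.379 on the log2 scale.

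**Figure D1:**
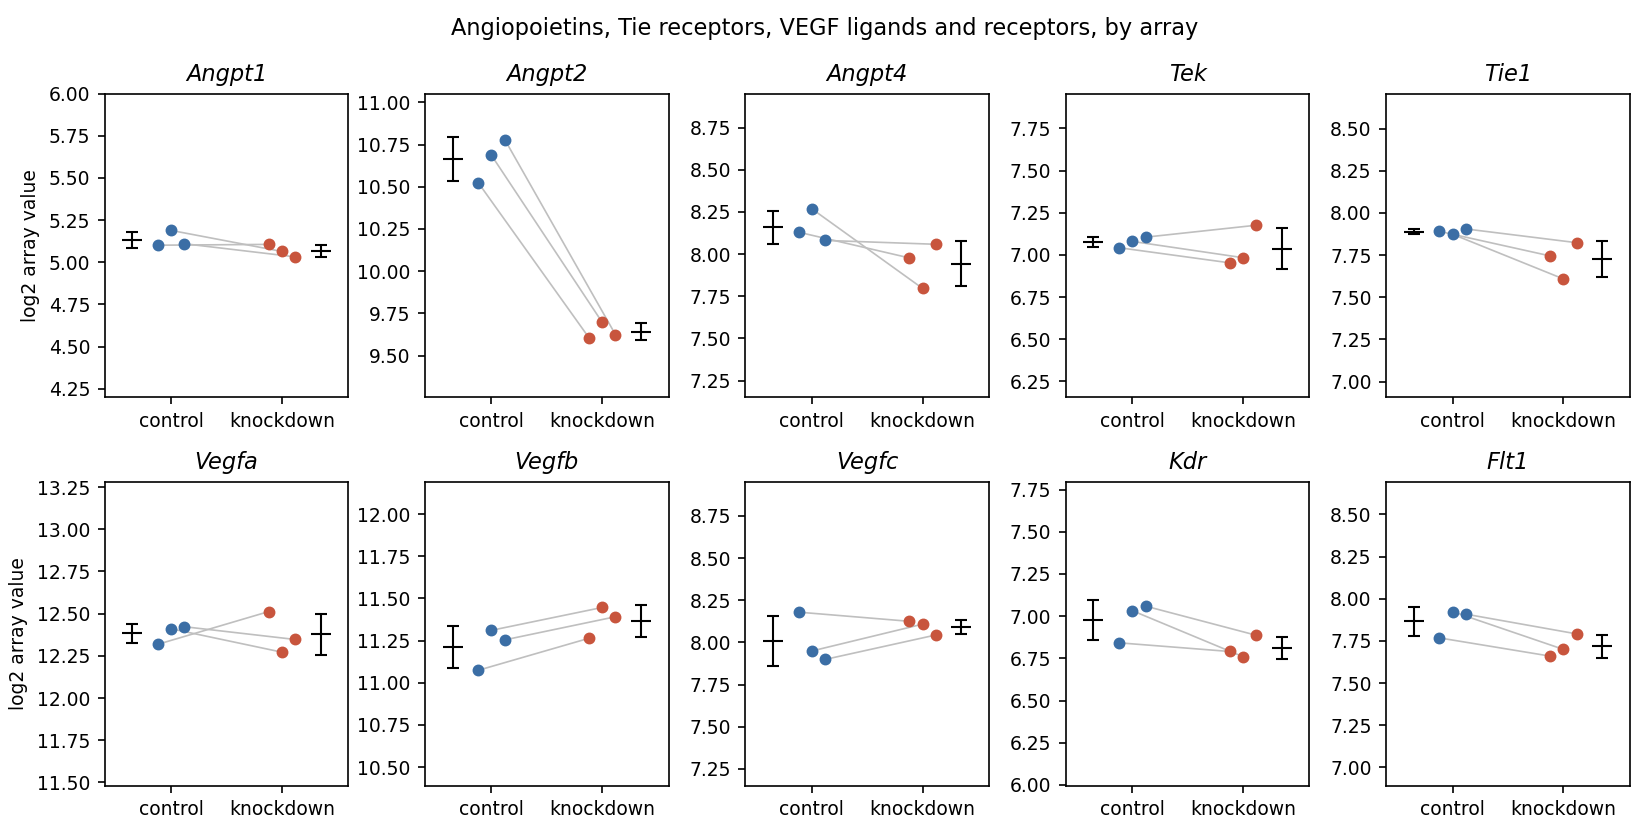
Log2 array value of each of the 10 genes (y axis, of equal span in every panel) in the 3 control arrays (blue) and 3 knockdown arrays (red). Grey lines join arrays with the same replicate number and black bars give the mean ± SD of each group. In Angpt2 the red points lie between 9.61 and 9.70 and the blue points between 10.52 and 10.78, while in the other panels the groups overlap or lie close together.

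Neither Tie receptor passed the test. Tek, the receptor of all 3 angiopoietins, read 7.04, 7.08 and 7.11 in control and 6.95, 6.98 and 7.18 in knockdown. Knockdown 3 was the highest of the 6 arrays and the other knockdown arrays were the lowest, so the groups overlapped. The difference was -0.04 (SE 0.08, interval -0.21 to 0.13, limma adjusted p = 0.797), and its sign turned to 0.01 after median centring and 0.03 after cyclic loess. Tie1 read 7.89, 7.87 and 7.91 in control and 7.75, 7.61 and 7.82 in knockdown. The control arrays were within 0.03 of each other and all 3 knockdown arrays lay below them. The difference of -0.16 (SE 0.07, interval -0.33 to -0.0010, a change of -10.7%) had a limma adjusted p of 0.250, and it was -0.11 without knockdown 2 and -0.10 after cyclic loess.

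The VEGF ligands did not pass the test in either direction. Vegfa, the principal endothelial growth factor, read 12.32, 12.41 and 12.42 in control and 12.51, 12.27 and 12.35 in knockdown. Knockdown held both the highest and the lowest array. The means were both 12.38, and the difference was -0.0069 (SE 0.08, interval -0.18 to 0.17, limma adjusted p = 0.970), with a sign that turned to 0.04 after median centring.

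Vegfb, a ligand of Flt1, read 11.07, 11.31 and 11.25 in control and 11.26, 11.45 and 11.39 in knockdown. It was higher in all 3 pairs of the same replicate number, by 0.19, 0.14 and 0.14, although the groups overlapped. The difference was 0.15 (SE 0.08, interval -0.03 to 0.34, limma adjusted p = 0.328), and without control 1 it was 0.08. Over all rows, 23.8% were higher in all 3 pairs. Vegfc, the lymphatic growth factor, read 8.18, 7.95 and 7.90 in control and 8.13, 8.11 and 8.04 in knockdown. Control 1 was its highest array and the other control arrays were its lowest. The difference was 0.08 (SE 0.08, interval -0.10 to 0.27, limma adjusted p = 0.592). It ranged from 0.03 without control 3 to 0.17 without control 1.

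The VEGF receptors were both somewhat below control, within the error of the test. Kdr, the main signalling receptor of Vegfa, read 6.84, 7.03 and 7.06 in control and 6.79, 6.76 and 6.89 in knockdown, a difference of -0.17 (SE 0.08, interval -0.34 to 0.01, limma adjusted p = 0.274). Flt1 read 7.77, 7.92 and 7.91 in control and 7.66, 7.70 and 7.79 in knockdown, a difference of -0.15 (SE 0.07, interval -0.31 to 0.01, limma adjusted p = 0.283). In both receptors the groups overlapped through a low control 1. Knockdown was lower in all 3 pairs in both, as in 5 of the 10 genes and in 29.0% of all rows. After cyclic loess the differences were -0.10 for Kdr and -0.09 for Flt1.

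**Figure D2:**
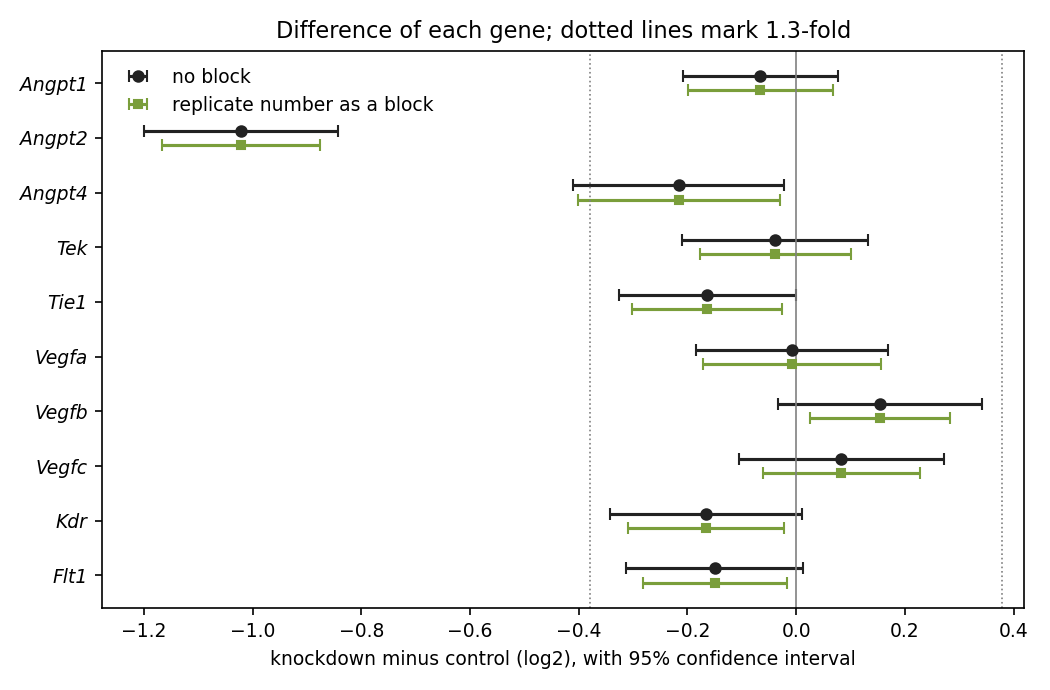
Knockdown minus control on the log2 scale (x axis) for each gene, with 95% confidence intervals from limma without a block (black circles) and with a replicate block (green squares). The dotted lines mark 1.3-fold. Angpt2 stands at -1.02, and the other 9 genes lie between -0.22 and 0.15.

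Over the set, 1 of the 10 genes was called lower and 0 were called higher, against 0.684% and 1.3% of all rows. By limma 3 of the 10 had an unadjusted p under 0.05 (Angpt2, Angpt4 and Tie1), as had 4327 of the 21789 rows. The groups did not overlap in the same 3 genes, against 26% of all rows. The other 9 genes had limma adjusted p values of 0.215 to 0.970, and for 8 of them the interval lay within 1.3-fold in both directions. The difference was below 0 in 8 of the 10 genes, against 57.5% of all rows, with a median of -0.108 against -0.0269.

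Small negative differences were common among rows of similar signal. Among the 5447 rows with a mean between 6.97 and 8.60, where Angpt4, Tek, Tie1, Vegfc and Flt1 lie, 78.5% were below 0 and the median difference was -0.086. In the lowest quartile of rows, which holds Angpt1 and Kdr, 71.5% were below 0 with a median of -0.049. In the quartile that holds Angpt2, with means of 8.60 to 10.6, only 38.1% were below 0 and the median was 0.056. The part of signal level in the differences was not tested.

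**Figure D3:**
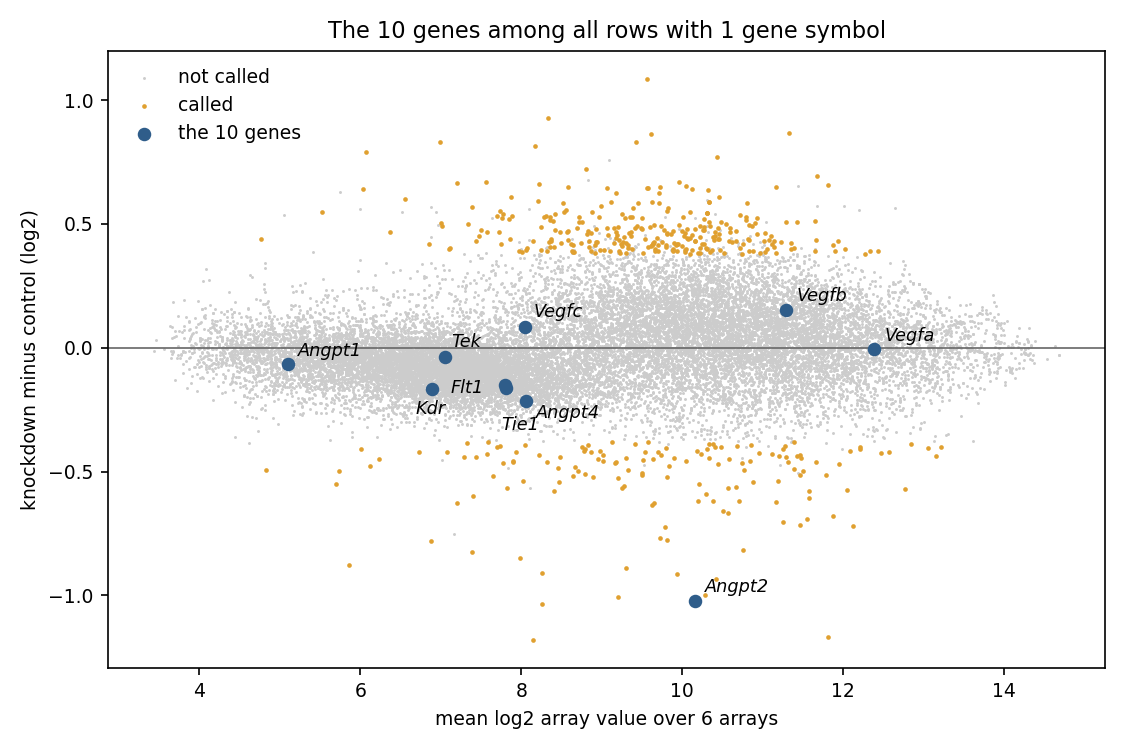
Knockdown minus control (log2, y axis) against the mean log2 array value over the 6 arrays (x axis) for all 21789 rows with 1 gene symbol. Called rows are orange, rows not called are grey and the 10 genes are blue. Angpt2 lies at -1.02 with a mean of 10.2, apart from the other 9, which lie in the cloud of rows not called.

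Other genes listed with the angiopoietin-Tie pathway held no called row, against 1.99% of all rows. At that share a list this short may well hold 0 calls, so the count says little of the list. Of the 24 measured (angiopoietin-like proteins, adaptors, integrins and the phosphatase Ptprb among them), 16 were below 0 and 8 above, with a median difference of -0.03. The largest difference was that of the adaptor Dok2, which binds activated Tek, at -0.29 (SE 0.11, limma adjusted p = 0.211) and -0.19 without knockdown 2. Ptprb, the vascular phosphatase that removes phosphate from Tek, was of like size and was singled out after its values were seen. It read 7.82, 7.74 and 7.73 in control and 7.46, 7.44 and 7.52 in knockdown, with no overlap. Its difference of -0.29 (SE 0.06, limma adjusted p = 0.0627) was below the fold required.

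In the wider VEGF pathway, 1 of 24 measured genes was called lower and 1 higher, against 0.684% and 1.3% of all rows. The median of the list was -0.038. Nrp1, the neuropilin co-receptor that binds VEGF beside Kdr and also serves semaphorins in axon guidance, fell. It read 12.07, 12.09 and 11.95 in control and 11.45, 11.66 and 11.47 in knockdown, a difference of -0.51 (SE 0.08, limma adjusted p = 0.0192). All knockdown arrays of Nrp1 lay below all control arrays. Mapkapk2, a kinase downstream of p38 that phosphorylates small heat shock proteins, rose from 10.04, 10.18 and 10.31 to 10.42, 10.84 and 10.63. Its difference was 0.45 (SE 0.11, limma adjusted p = 0.0819). The Mapkapk2 call was lost on leaving out control 1, control 2, control 3, knockdown 2 or knockdown 3, with limma adjusted p of 0.125, 0.235, 0.135, 0.241 and 0.146.

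Further genes of the VEGF family are given for their roles and were chosen after their values were seen. Nrp2, the neuropilin associated with Vegfc, differed by -0.26 (limma adjusted p = 0.0855), below the fold required. Pgf, the placental growth factor that binds Flt1, differed by -0.19 (limma adjusted p = 0.197). Vegfd, a lymphatic ligand, differed by 0.06 (limma adjusted p = 0.666). Flt4, the receptor of Vegfc and Vegfd, differed by -0.01 (limma adjusted p = 0.926), with the sign turned to 0.04 after median centring and 0.06 after cyclic loess.

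Regulators of the ligand and receptor genes held no called row either, against 1.99% of all rows. Of 22 hypoxia, ETS, forkhead and related factors, 12 were below 0 and 10 above, with a median of -0.011. The largest difference was -0.25 for the ETS factor Fli1 (SE 0.09, limma adjusted p = 0.176), which was -0.15 without knockdown 2. Hif1a, the oxygen-regulated activator of Vegfa, differed by 0.06 (limma adjusted p = 0.615) and Epas1, its relative with a prominent part in endothelium, by -0.13 (limma adjusted p = 0.365). Both were named after their values were seen.

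**Figure D4:**
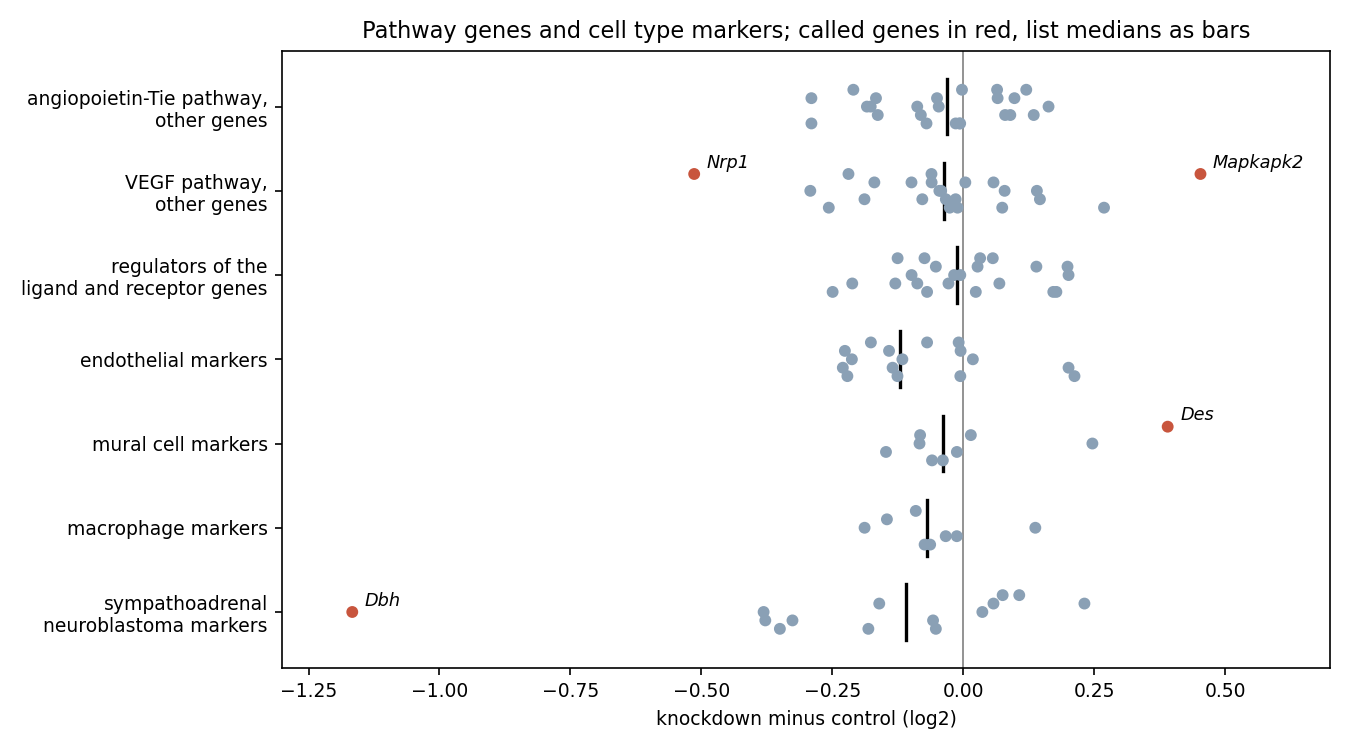
Knockdown minus control (log2, x axis) for each measured gene of the pathway and marker lists (rows of points). Called genes are red and labelled, and black bars give the list medians. Nrp1 at -0.51 and Mapkapk2 at 0.45 are the called genes of the pathway lists, Des at 0.39 and Dbh at -1.17 those of the marker lists.

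Because these receptors are typical of endothelium, markers of vascular and blood cells were examined on the same arrays. Of 16 endothelial markers 0 were called, against 1.99% of all rows, and the median difference was -0.121. Below 0 were 13 of them, against 78.5% of rows with means of 6.97 to 8.60, where their median control signal of 8.1 lies. The endothelial mean signal was 8.19 to 8.29 over the control arrays and 8.12 to 8.20 over the knockdown arrays. The defining markers Cdh5 and Pecam1 read 7.81 and 8.87 on average in control, and no detection call was used, so these signals do not show whether the transcripts were present. The largest endothelial difference was -0.23 for Robo4 (limma adjusted p = 0.126, and 0.0306 with the replicate block). Above 0 were 3 markers, the largest being Pecam1 at 0.21 and Erg at 0.20 (limma adjusted p = 0.239 and 0.186). With the replicate block these had limma adjusted p of 0.0542 and 0.086, and 0 of the 16 markers were called. Of 8 macrophage markers 0 were called and 7 were below 0, as were 71.5% of the lowest quartile of rows and 78.5% of the next. Macrophage mean signals were 6.72 to 6.81 in control and 6.64 to 6.74 in knockdown. The largest macrophage difference was -0.19 for Cd14 (limma adjusted p = 0.192), and the 1 marker above 0 was Tyrobp at 0.14.

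Of 9 mural cell markers, Des, the muscle intermediate filament protein, was called higher by 0.39 (SE 0.10, limma adjusted p = 0.0797), while the median was -0.039. Over all rows 1.3% were called higher. The mural mean signal was 7.93 to 7.95 in control and 7.93 to 8.03 in knockdown. The Des call was lost on leaving out any array but knockdown 1, with limma adjusted p of 0.121 to 0.254. All arrays are of the N2A line, and the part of these markers in the differences of Angpt2 or the receptors was not tested.

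Markers of the cells' own lineage were examined in the same way, and 1 of them was called, against 1.99% of all rows. The 14 measured sympathoadrenal neuroblastoma markers had mean signals of 11.85 to 11.91 in control and 11.68 to 11.70 in knockdown, with 9 of 14 below 0 and a median difference of -0.109. Dbh, the enzyme that makes noradrenaline, fell from 12.21, 12.64 and 12.32 to 11.07, 11.36 and 11.25, a difference of -1.17 (SE 0.12, limma adjusted p = 0.00471). With the replicate block 2 markers were called, the other being the catecholamine enzyme Th at -0.38 (limma adjusted p = 0.0420). Singled out after their values were seen, the granins Chgb and Chga, cargo of dense core vesicles, differed by -0.38 and -0.35 (limma adjusted p = 0.0456 and 0.0628) and the lineage factor Gata3 by -0.33 (limma adjusted p = 0.0484), all short of the fold required, Chgb by the narrowest margin. Chgb was called after cyclic loess and without knockdown 1, Chga and Th without control 1, and Th also with the variance filter over rows of 1 symbol. The other 5 of the 14 markers were above 0. The largest of these was Ddc, a further catecholamine enzyme, at 0.23 (limma adjusted p = 0.317, and 0.033 with the replicate block). Mycn differed by 0.11 (limma adjusted p = 0.465). The part of these markers in the Angpt2 difference was not tested.

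Genes beside Angpt2 on its chromosome, in the RefSeq order, were not called. Mcph1, a chromosome condensation gene whose span contains Angpt2, had a mean of 11.82 ± 0.08 in control and 11.92 ± 0.08 in knockdown (SD, n = 3), a difference of 0.10 (SE 0.07, limma adjusted p = 0.443). Csmd1, next before, differed by -0.18 (limma adjusted p = 0.204), and Agpat5, next after, by 0.03 (limma adjusted p = 0.887).

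The rows most like Angpt2 over the 6 arrays were ranked by Pearson's r among 19937 other symbols. The points are 2 groups of 3 arrays, so that r mostly follows the difference between groups, and it is given as a description. Rows chosen by their r, high or low, therefore differ between groups through the choice, and their p values and calls are descriptions too. The highest r were those of Syt6 (0.999), Haus4 (0.999), Grid1 (0.997), Ptpn7 (0.996) and Erlin2 (0.996). Of these only Erlin2, an endoplasmic reticulum membrane protein, was called, at -0.71 (limma adjusted p = 0.00309). The other 4 differed by -0.23 to -0.29.

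The lowest r were those of Hdac9 (-0.998), Stx11 (-0.990) and Tsr3 (-0.988). Hdac9, a class II histone deacetylase, rose by 0.53 (limma adjusted p = 0.0107) and Tsr3, a ribosome biogenesis gene, by 0.41 (limma adjusted p = 0.0243), a call that was lost on leaving out control 2, control 3 or knockdown 2 with limma adjusted p of 0.116, 0.109 and 0.104. Stx11 differed by 0.16 (limma adjusted p = 0.195). Among the vascular genes r with Angpt2 was 0.82 for Flt1, 0.79 for Kdr, 0.76 for Tie1, 0.71 for Angpt4 and 0.69 for Angpt1. It was 0.28 for Tek, 0.06 for Vegfa, -0.54 for Vegfc and -0.55 for Vegfb. These values of r also mostly follow the differences between groups given above.

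RefSeq promoter windows were at hand for 8 of the 10 genes (9 windows), and Angpt2 and Angpt1 were not searched for want of one. Both strands were searched for the POU octamer ATGCAAAT and for TAATGAAAT and TAATGAGAT, and 0 of the 9 windows held any of them, against 1.74%, 0.277% and 0.301% of all 32851 windows. The hypoxia response core ACGTG was in 1 window, that of Vegfa, against 19.6% of all windows. The core GCGTG was in 5 windows (Angpt4, Flt1, Kdr, Vegfa and Vegfb), against 32.4%. These are counts of letters in a window and say nothing of binding.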

How the data were processed

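RNA from 3 control and 3 Pou3f3 knockdown cultures was hybridised to 1 array each. By the methods of the study, the authors used RMA background correction, quantile normalisation and summaries per gene, and deposited log2 values. The submitters' processing notes name RMA and limma and give no versions. The platform table gave 1 gene symbol for 21789 of 35556 rows, several symbols for 1621 and no entry for 12146. Names were updated through RefSeq (GRCm38.p6, 21698 rows matched). No coordinates are given, since the sources used here name no genome build for the array.

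Differences, knockdown minus control, were fitted in R 4.3.3 with limma 3.58.1 (lmFit, eBayes, no covariate) over all rows with 1 symbol, with Benjamini-Hochberg adjustment, and checked on simulated data. The variance filter of the study was an alternative, because it drops several of the 10 genes and its cut-off can be read in more than 1 way. Other alternatives were a level filter, median centring, cyclic loess, the replicate number as a block, other thresholds and leaving out each array. Quantile normalisation hides a change shared by most transcripts, and precision is limited by the 3 arrays per group. The p-values measure the spread between cultures of 1 line.

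Deviations from the group means correlated by 0.638, 0.307 and 0.289 between arrays of the same replicate number, all above the limit of 0.1 set for pairing. Control 2 with knockdown 3 (0.254) and control 3 with knockdown 2 (0.216) also passed it. Only replicate 1 was thus set apart, and a pairing of numbers 2 and 3 is not established. The main fit has no block, and the replicate block is given as an alternative. Any pairing rests on the data, since the labels do not say what the number shares.

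The genes and lists were chosen with earlier results of these data known. Named were the 10 genes, Pou3f3, the called genes of the lists (the largest difference for a list without calls), the neighbours of Angpt2, and the 5 highest and 3 lowest correlations with it. Promoters and primers were searched in Python 3.11.15.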

Additional observations from a re-analysis of the deposited data

How the results depend on the processing

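Angpt2 was called under all 13 alternatives with a difference of -1.09 to -0.96 and a limma adjusted p of 1.58e-08 to 0.0816. The highest p came with the variance filter over all rows (17778 rows), the lowest with that filter over rows of 1 symbol. With the latter the difference was unchanged and the SE was 0.118, against 0.079 in the main fit. The lowest p therefore does not reflect a tighter estimate. In each alternative Angpt2 was the only one of the 10 genes called, although the filters left out some of the others. The replicate block gave Angpt2 an adjusted p of 9.23e-05 and changed no call among the 10 genes. In that paired fit the intervals of 6 genes (Angpt2, Angpt4, Tie1, Vegfb, Kdr and Flt1) left out 0, and the adjusted p of the genes other than Angpt2 were 0.101 or more. Of 99 values of those other genes under the alternatives 0 were called and 8 had the sign turned. For Tek these were 0.012 (median centring), 0.034 (cyclic loess) and 0.0037 (without knockdown 1), with a range of -0.108 to 0.0037 on leaving out 1 array. For Vegfa they were 0.043 (median centring) and 0.0065, 0.013, 0.046 and 0.0081 on leaving out control 2, control 3, knockdown 2 and knockdown 3, with a range of -0.074 to 0.046. Alternatives for the other named genes were added after the data were seen. Agpat5 turned to -0.00081 (cyclic loess), -0.051 (without control 3) and -0.0014 (without knockdown 1), with a range of -0.051 to 0.079 on leaving out 1 array. Flt4 turned to 0.036 (median centring), 0.058 (cyclic loess), 0.028 (without control 3), 0.0087 (without knockdown 1) and 0.0029 (without knockdown 2), with a range of -0.055 to 0.028. The variance filter over all rows ended the calls of Nrp1, Mapkapk2, Des, Erlin2, Hdac9 and Tsr3 (adjusted p of 0.253, 0.327, 0.351, 0.127, 0.221 and 0.301). All of these calls were kept with the variance filter over rows of 1 symbol. Averaging the rows of a symbol ended the call of Tsr3, whose difference was then 0.31, below the 1.3-fold required. Tsr3 had more than 1 row, and the value given for it above is that of the row with the highest mean.

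Of all rows, 433 were called. The count was 12 with the variance filter over all rows and 542 with that filter over rows of 1 symbol. It was 969 with no fold threshold, and 147 to 611 on leaving out 1 array (147 without knockdown 2, 161 without control 2 and 219 without control 3). With 3 cultures per group, a difference whose interval includes 0 cannot be told from none. Array signal gives no depth, and without a detection call a low signal such as that of Angpt1 cannot be told from background.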
